A study of Mus musculus with 714 samples.

Results

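Spink12, a gene of the Kazal-type serine protease inhibitor family, is 1 of the 12479 gene rows measured in single cells of the mouse uterine epithelium. Its row was followed over 5 ages, and the pnd56 and pnd28 cells in which it was counted were then set against the other cells of the same age. The gene was selected on its counts per age, which were known to be highest at the latest ages, and the holding cells were chosen by their Spink12 count. Its own levels and the makeup of the cells that hold it are therefore descriptions without a test. A cell with at least 1 Spink12 count is called a holding cell below. There was 1 such cell on postnatal day 0 (pnd0), 0 at pnd7, 1 at pnd14, 10 of 56 cells at pnd28 and 18 of 45 at pnd56, among 714 cells in all.

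The cells came from uteri of ICR mice, an outbred strain, at those 5 ages, and had been sorted for the surface protein CD326 (EpCAM), which marks epithelial cells. No genotype or treatment other than age separates the groups, and no label names an animal, a litter, a pool or a stage of the oestrous cycle. Each age was therefore treated as 1 sample, cells were not treated as replicates, and no p-value was computed. The libraries were made by CEL-seq, a method that amplifies single-cell RNA by in vitro transcription and counts transcript 3' ends, so counts were not divided by gene length.

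Kazal-type inhibitors are small secreted proteins that enter the active site of a serine protease like a substrate and stay bound to it. Members of the SPINK family restrain trypsin-like and kallikrein-like enzymes in the pancreas, the skin and the male reproductive tract. Uterine glands form by budding from the luminal epithelium after birth and later secrete proteases, protease inhibitors and nutrients into the lumen. In the mouse, the secreted proteases include Prss28 and Prss29, the implantation serine proteinases, and Spink12 is often listed among gland genes. In GENCODE M21 the gene lies on the plus strand of chromosome 18 beside Spink6 and Spink14, neither of which has a row in the table, and no other protein-coding gene lies within 2 kb of it.

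Over the whole table the median was 2275.5 counts per cell, with a maximum of 9332, and 92.3% of values were 0. Median depth was lower at the late ages, with 3037, 2492, 1782, 1600 and 1670 counts per cell over pnd0, pnd7, pnd14, pnd28 and pnd56.

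Spink12 was nearly missing before pnd28 and was among the more abundant rows of the adult cells. Levels were summed over the cells of an age and expressed in counts per 1000000 counts (CPM), with exact 95% Poisson intervals that, like all intervals here, cover counting error only. The summed level was 1.72 CPM [0.0435, 9.56] at pnd0 from 1 count, and 0 at pnd7, where 3 counts would correspond to 4.09 CPM and to 1.12% of cells. It was 5.65 CPM [0.684, 20.4] at pnd14 from 2 counts in a single cell, 800 CPM [631.4, 999.9] at pnd28 from 77 counts, and 2332 CPM [2013, 2688] at pnd56. The intervals of pnd0, pnd7 and pnd14 overlapped, while those of pnd14, pnd28 and pnd56 did not. By summed CPM the row stood within the top 1.22% of all 12479 rows at pnd28 and the top 0.433% at pnd56.

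Nearly all counts thus lay in the 2 latest ages, which each form a single run of libraries. Blocks of 96 consecutive title numbers form 10 such runs, and no label explains these blocks. Run 9 holds all pnd28 cells and run 8 all pnd56 cells, so age and run cannot be told apart. The single pnd0 count lay in run 2 and both pnd14 counts lay in run 7.

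**Figure D1:**
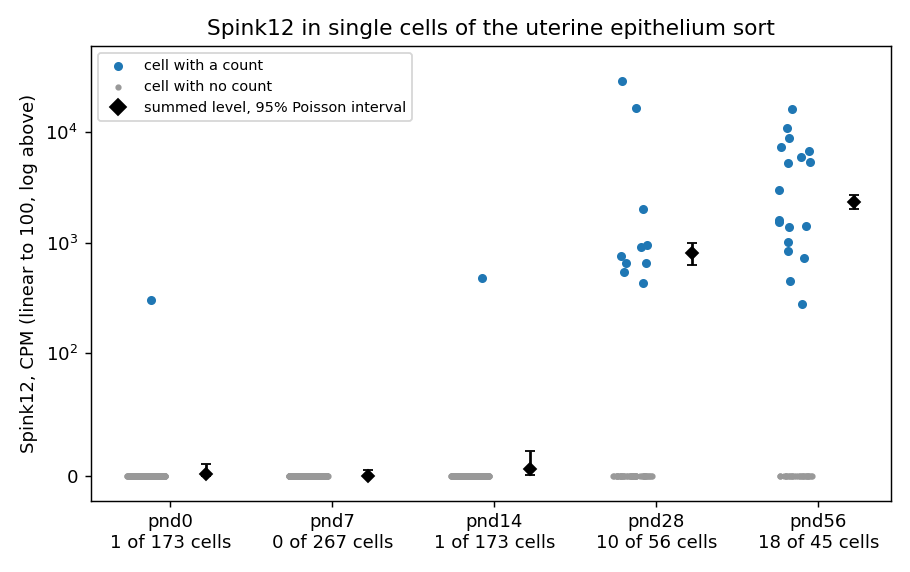
Spink12 in CPM (vertical axis, linear to 100 and logarithmic above) at the 5 ages. Blue points are cells with a count, grey points at 0 are cells without one, and black diamonds with bars are the level summed over the cells with its 95% Poisson interval. Summed levels were 800 CPM at pnd28 and 2332 CPM at pnd56, while pnd0, pnd7 and pnd14 lay at 1.72, 0 and 5.65 CPM.

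At pnd28 the level was 800 CPM, against 5.65 CPM at pnd14, a log2 ratio of 7.15 [5.24, 10.22]. It ranked 3rd of 3785 genes with at least 20 counts over both ages, of which 11.9% were at least 2-fold higher at pnd28, and whose median log2 ratio was −0.23. Without the 2 pnd28 cells with the largest Spink12 counts the log2 ratio was 4.51. Without run 7 only a lower bound of 5.74 remained.

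At pnd56 the level was 2332 CPM, against 800 CPM at pnd28, a 2.92-fold difference [2.23, 3.85] and a log2 ratio of 1.54 [1.15, 1.94]. Of 1797 genes, 14.8% were at least 2-fold higher at pnd56 and 16.5% at least 2-fold lower, and Spink12 ranked within the top 6.90%, among genes with a median log2 ratio of 0.06. The size of this step depended on few cells: it was 2.22 without the largest cell of each age, 4.18 without the 2 largest pnd28 cells, 0.90 when each cell was weighted the same, and 0.88 without cells above 2 times the median total of their age.

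At pnd56 the level was 2332 CPM, against 1.72 CPM at pnd0, a log2 ratio of 10.41 [7.91, 15.72], the highest of 4725 genes, of which 10.3% were at least 2-fold higher at pnd56 and whose median was −0.34. Without run 2, which holds the only pnd0 count, a lower bound of 7.84 remained.

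Within both late ages the counts were concentrated in few cells. At pnd56 the 18 holding cells had 73, 27, 18, 11, 10, 10, 10, 7, 5, 4, 3, 3, 2, 2, 2, 2, 1 and 1 Spink12 counts. The largest held 38.2% of the counts of that age, and without it the summed level was 1525 CPM [1262, 1826]. At pnd28 the 10 holding cells had 46, 19, 3, 2, 2, 1, 1, 1, 1 and 1 counts. The 2 largest held 84.4% of the pnd28 counts, and without them the level was 128.3 CPM [66.3, 224.2], or 327.5 CPM without the largest alone.

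**Figure D2:**
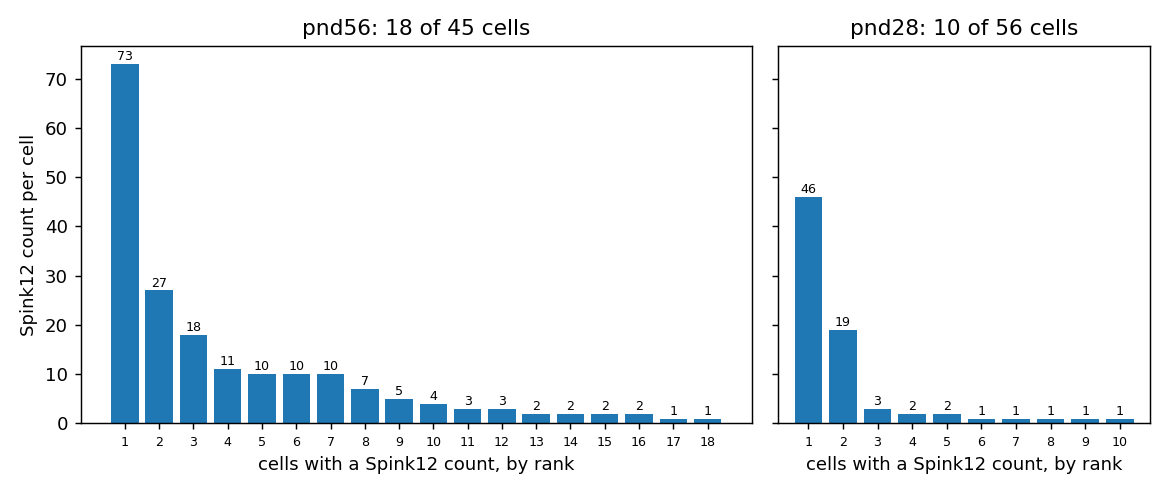
Spink12 counts per cell (vertical axis) in the holding cells ranked from highest to lowest (horizontal axis), pnd56 at the left and pnd28 at the right. At pnd56 7 cells had 10 or more counts, with 73 in the largest, and at pnd28 2 cells did, with 46 and 19.

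By cells, Spink12 was counted in 40% [25.7, 55.7] of pnd56 cells, against 17.9% [8.91, 30.4] of pnd28 cells (exact Clopper-Pearson intervals). After every cell was thinned to 1500 counts the expected shares were 46.5% of 25 pnd56 cells and 15.1% of 33 pnd28 cells, and shallower cells, 20 at pnd56 and 23 at pnd28, were left out. At pnd56 the holding cells were deeper, with a median of 2052 counts per cell, against 1400 in the other cells. At pnd28 the medians were 1568.5 counts in holding cells and 1604.5 in other cells. Values of the pnd56 genes after thinning are given with them below.

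Some single counts at pnd28 lay in cells that carry muscle genes, defined by at least 5 counts of the smooth muscle list. Spink12 was counted once each in 2 of 8 of them, 25% [3.19, 65.1], against 8 of the other 48 cells, 16.7% [7.48, 30.2]. One of the 2 had 34 counts of that list and none of Epcam or Krt18, and the other had 5, at the limit, with 2 counts each of Epcam and Krt18. The muscle-marked cells had a median depth of 1730 counts and a summed level of 140.8 CPM [17.1, 508.7], and the other cells 1568.5 counts and 914.1 CPM [719, 1146]. The intervals of the 2 shares overlapped. The pnd28 share of cells with a count was not taken for a share of expressing cells, and the pnd28 signal rests on the 2 cells with 46 and 19 counts. At pnd14, 0 of 40 muscle-marked cells held a count. At pnd56 a single cell was muscle-marked, and it held none.

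Position in the run also moved with the gene at pnd56. In successive stretches of 24 title numbers it was counted in 0 of 9, 7 of 13, 6 of 13 and 5 of 10 cells. The first stretch had a median depth of 1212 counts, and 0 of 9 cells allows up to 33.3% by a floor of 3 cells. At pnd28 the stretches had 3 of 11, 3 of 17, 2 of 15 and 2 of 13 holding cells. What the stretches stand for is not given in the labels. Without the first stretch the 18 genes named for pnd56 below kept their direction, with log2 ratios, holding over other cells, of 3.30 for Sprr2b and 2.75 for Ltf.

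The cell with the most Spink12 had no Epcam count at either late age. Krt18, a keratin of simple epithelia, was counted in 41 of 45 pnd56 cells and Epcam, the gene of the sorted protein, in 24. The pnd56 cell with 73 Spink12 counts was also the deepest holding cell, with 4509 counts. Stroma genes made up 4.15% of its counts, with 72 counts of the collagen gene Col1a2 and 54 of Col3a1, and it had no Epcam count and 2 of Krt18. The next 3 cells, with 27, 18 and 11 Spink12 counts, had 8, 3 and 4 Epcam counts and 10, 7 and 10 Krt18 counts. At pnd28 the cell with 46 counts had 4 of Krt18 and none of Epcam among 1600 counts. The cell with 19 had neither among 1144 counts, and 3 counts of the smooth muscle list.

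At pnd56 the holding cells carried more RNA of some oestrogen-induced epithelial genes than the other cells, mainly the Sprr2 family, Ltf and Muc1. None of the holding cells had a count of Klk1 or Mmp7. For each gene the counts were summed over the 18 holding cells and over the 27 other cells, without Spink12 in the totals. Of 820 genes with at least 20 counts, 14.1% were at least 2-fold higher and 16% at least 2-fold lower in holding cells, and the median log2 ratio of all was −0.05.

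Sprr2b, a small proline-rich protein that is cross-linked into cell envelopes and is induced by oestrogen in the mouse uterus, led the list. It was counted in 17 of 18 holding cells, 94.4% [72.7, 99.9], against 9 of 27 other cells, 33.3% [16.5, 53.96]. Holding cells had a median of 10 counts, with 20.3% of all Sprr2b counts in 1 of them, and other cells a median of 0 and up to 31. The summed level was 13193 CPM in holding cells, against 1673 CPM in other cells, a log2 ratio of 2.98 [2.62, 3.36], and 2.68 without the cell with the most Sprr2b. The ranges overlapped, since 9 other cells also had the gene.

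Ltf encodes lactoferrin, an iron-binding secreted defence protein and another target of oestrogen. It had counts in 13 holding cells, up to 47 with a median of 6, against 9 other cells, up to 10 with a median of 0. Its log2 ratio was 2.74 [2.20, 3.33] on levels of 5117 CPM in holding cells and 765 CPM in other cells. After thinning to 1500 counts, with holding cells defined on the thinned counts, it was 0.45 [−0.08, 0.98] between 10 holding and 15 other cells. In that draw 3 of 13 holding cells had lost their Spink12 count and stood with the other cells. Kept with the holding cells, they gave 3.25 [2.36, 4.29], and thinning to 1000 counts gave 2.43 [1.87, 3.02]. The near-identical genes Sprr2a3 and Sprr2a2, whose reads the counting may have shared, had 2.58 and 2.54, each with counts in 17 holding and 14 other cells.

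Among the other named genes, Cp, the copper-carrying ferroxidase ceruloplasmin, had a log2 ratio of 4.59 [1.97, 9.96] with 23 counts in 11 holding cells and 1 count in the 27 other cells. Tsc22d1, a leucine zipper transcription regulator, had 29 counts in 12 holding cells, against 3 counts in 2 other cells, a log2 ratio of 3.34 [1.65, 5.70]. Pigr, which moves immunoglobulin A through epithelial cells, had 42 counts in 12 holding cells, against 10 in 4 other cells. Cbr2, a carbonyl reductase, had a log2 ratio of 2.0 [1.70, 2.31] with counts in 16 of 18 holding cells and 20 of 27 other cells. Nelfe, a subunit of a complex that pauses RNA polymerase, had 2.13, but Skiv2l and Cfb lie within 2 kb of it and its reads may be theirs. Smarcc1, a chromatin remodelling subunit, had 20 counts in holding cells, against 1 in other cells. Rab1, a GTPase of transport from the endoplasmic reticulum, had 19 in holding cells, against 2 in other cells. Sirt7, a nuclear deacylase, had 19 in holding cells, against 8 in other cells.

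Thinning changed the size of several of these ratios. At 1500 counts, with holding cells defined on the thinned counts, Sprr2b stood at 2.33 [1.96, 2.73], Sprr2a3 at 2.58, Cbr2 at 1.48, Nelfe at 0.98 [0.61, 1.36] and Tsc22d1 at 1.73 [0.09, 3.61]. The intervals of Cp at 1.40 [−0.58, 3.62], Rab1 at 1.33, Pigr at 0.59 and Sirt7 at 0.59 then included no difference, on at most 20 counts each. Smarcc1 had 4 counts in holding cells, against 0 in other cells. With the holding cells kept as before thinning, Sprr2b stood at 3.48, Pigr at 3.06, Cbr2 at 2.61 and Nelfe at 2.52, and Cp had 11 counts in holding cells, against 0 in other cells.

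Klk1, tissue kallikrein, a secreted serine protease, led the lower genes. It had 0 counts in the 18 holding cells, against 64 counts in 11 of 27 other cells with up to 18 in a cell. Against a floor of 3 counts over the holding cells it was at least 20.3-fold lower. Mmp7, the metalloprotease matrilysin, had 0 counts, against 31 in 10 other cells, at least 9.85-fold lower. Napsa, an aspartic protease, had 6 counts in 4 holding cells, against 68 in 13 other cells, a log2 ratio of −3.43 [−4.93, −2.24]. Klk1 has close relatives with rows of their own, such as Klk1b21, and reads may be shared among them.

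Taken over cells, 18 had Spink12, 14 had Klk1 or Mmp7 (7 of them both), 0 had Spink12 together with either, and 13 had none of these genes. A count of 0 in 18 cells allows a share of up to 16.7% by the floor and 18.5% by the exact interval. Median depths were 2052 counts in the Spink12 cells, 1622.5 in the Klk1 or Mmp7 cells and 1212 in the remaining 13 cells. The Klk1 or Mmp7 cells ranged in depth from 864 to 2660 counts, within which holding cells were also found.

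Histone Hist1h2ao and Hist1h2ap, with identical counts and so 1 measurement, had a log2 ratio of −0.78, and −3.72 without the holding cell that had 31.3% of all their counts. Mtx1, a mitochondrial import protein, had 2 counts in holding cells, against 46 in other cells. It lies within 2 kb of Muc1, so its reads may not be its own, although the Muc1 row itself ran the other way with 2935 CPM and counts in 17 holding cells, against 1243 CPM and counts in 14 other cells.

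**Figure D3:**
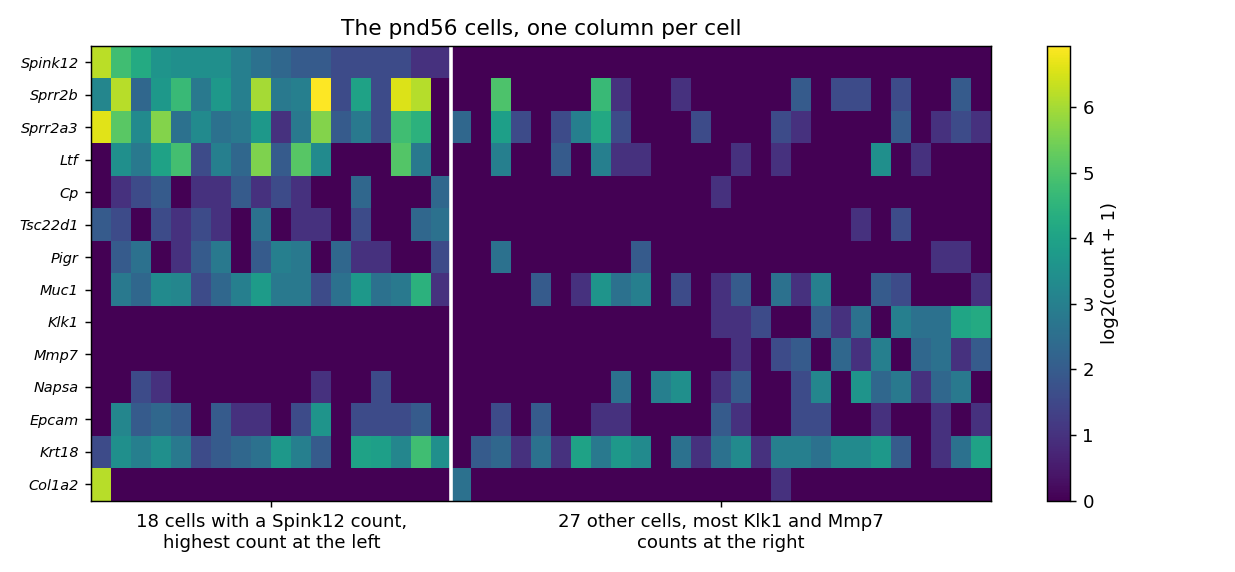
Counts of 14 genes (rows) in the 45 pnd56 cells (columns), as log2(count + 1) on the colour scale. The 18 holding cells stand left of the white line, ordered by Spink12, and the 27 other cells right of it, ordered by their Klk1 and Mmp7 counts. Sprr2b, Ltf and Cp counts lie mostly at the left, Klk1 and Mmp7 counts only at the right, and the Col1a2 counts of holding cells are all in the cell at the left edge.

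Of these genes, Sprr2b and Ltf led the higher group and Klk1 the lower one, and their promoters are shown because oestrogen-responsive genes were among the first. The windows run from 250 bases before to 50 after the annotated start, from RefSeq on build GRCm38.p6: Sprr2b at chr3:92316455-92316754, Ltf at chr9:111019042-111019341 and Klk1 at chr7:44225110-44225409, all on the plus strand. Capitals mark the oestrogen response half-site GGTCA on either strand (TGACC on the printed one).
Sprr2b: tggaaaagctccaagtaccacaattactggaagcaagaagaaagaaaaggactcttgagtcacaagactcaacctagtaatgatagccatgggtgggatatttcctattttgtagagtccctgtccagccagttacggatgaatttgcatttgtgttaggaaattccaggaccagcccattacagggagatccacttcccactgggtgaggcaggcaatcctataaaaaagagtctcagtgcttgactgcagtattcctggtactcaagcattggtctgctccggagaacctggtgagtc
Ltf: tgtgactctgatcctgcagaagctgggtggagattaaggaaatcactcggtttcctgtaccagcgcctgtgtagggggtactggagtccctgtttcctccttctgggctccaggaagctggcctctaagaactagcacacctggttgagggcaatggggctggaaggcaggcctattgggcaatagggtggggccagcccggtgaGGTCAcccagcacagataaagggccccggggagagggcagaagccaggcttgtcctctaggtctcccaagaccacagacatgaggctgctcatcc
Klk1: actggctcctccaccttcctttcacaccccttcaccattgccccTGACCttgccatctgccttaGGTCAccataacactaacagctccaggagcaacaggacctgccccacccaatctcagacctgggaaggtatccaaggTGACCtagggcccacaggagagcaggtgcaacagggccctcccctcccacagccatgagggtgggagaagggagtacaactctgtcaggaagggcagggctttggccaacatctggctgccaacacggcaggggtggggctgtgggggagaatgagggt
The half-site occurred once in the Ltf window, 3 times in the Klk1 window and not in the Sprr2b window, and in 40.5% of 32851 RefSeq windows of this length. These matches are letters in a window and not measured binding.

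Gene lists were counted at pnd56 at a 1.5-fold limit that 24.3% of the 820 genes passed higher and 27.6% lower. These lists were drawn up with earlier results of these data known. Of 13 measured oestrogen-responsive genes 7 were higher and 1 lower, with a median log2 ratio of 1.20, and the list took 6.04% of the counts of holding cells and 2.22% of those of other cells. The higher ones were Ltf, the membrane mucins Muc1 and Muc4, and Sprr2b, Sprr2a3, Sprr2a2 and Sprr2f. The Sprr2 genes are of a single family, and Sprr2a3 and Sprr2a2 may share reads, so the 7 are not independent. Sprr2f stood at 1.20 and Muc1 at 1.24 [0.76, 1.74]. Muc4 stood at 1.22 [0.26, 2.24], but at 0.63 [−0.44, 1.74] without the cell with its largest count. Clu, clusterin, stood at −0.04, and the lower one was Car2, a carbonic anhydrase, at −0.65. Of 8 luminal epithelial markers 5 were higher and 1 lower, with Epcam at 1.39 from 13 of 18 holding cells and 11 of 27 other cells, and Krt18 at 0.02. Beside Epcam the higher ones were Fxyd3 and, already counted in the oestrogen-responsive list, Sprr2b, Sprr2f and Muc1. The lower one was Prap1, a secreted proline-rich protein, with 4590 CPM and counts in 15 holding cells, against 19936 CPM and counts in 24 other cells. In the list of gland genes, Spink12 left out, 0 members had enough counts to be measured. That list had 6 counts in 4 holding cells, all of Lif, against 0 in other cells.

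Of 3 other protease inhibitors 2 were higher, among them Spint1 at 1.07 [0.01, 2.20], and 1 was lower. Secretory proteins were divided, with 5 of 11 higher and 4 lower. Pigr and Ltf were on the higher side. Spp1, the secreted phosphoprotein osteopontin, stood at −2.46 with Klk1, Prap1 and the whey acidic protein gene Wfdc2 on the lower side. Both measured MHC class II genes were lower by summed counts, with 15 counts of that list in holding cells and 99 in other cells, 91 of them in a single cell. List counts lay in 6 holding cells and 4 other cells. Cd74 stood at −2.49, but at 3.20 [0.35, 8.65] without the cell with its largest count. H2-Ab1 had 5 counts in 1 holding cell, against 20 counts in 1 other cell. The receptor gene Esr1 was counted in 11 of 18 holding cells and 11 of 27 other cells, and Pgr in 1 holding cell and 2 other cells.

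Of the marker lists of other cell types, stroma and fibroblast genes took 0.479% of the counts of holding cells, against 0.134% in other cells, with 3 of 4 measured genes higher and Col1a2 at a log2 ratio of 3.65. The holding cell with 73 Spink12 counts had 97.9% of the stroma counts of the holding cells. Per cell these genes ranged from 0% to 4.15% of the counts in holding cells and from 0% to 2.34% in other cells, with medians of 0%. Endothelial genes had 22 counts in holding cells, against 7 in other cells, and immune genes had 11 in holding cells, against 13 in other cells. Smooth muscle genes had 0 in holding cells, against 9 in other cells. Ciliated and erythroid genes had at most 2 counts in either set. Without that cell the log2 ratios of the 18 genes named by rule at pnd56 kept their direction.

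At pnd28 the 10 holding cells had a different makeup. Of 984 genes with at least 20 counts, 13.4% were at least 2-fold higher and 19.2% at least 2-fold lower than in the 46 other cells, with a median log2 ratio of −0.06. Of the 10 holding cells 5 had a single count, so the step to the cells with 0 counts is as small as it can be.

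By summed counts the gland proteases were not higher in the pnd28 holding cells. Prss29 was counted in 10 of 10 holding cells and 42 of 46 other cells, with 83 counts in holding cells and 1061 in other cells, where 670 of the other cells' counts lay in a single cell. Its log2 ratio was −1.53 [−1.87, −1.21], and −0.15 [−0.51, 0.19] without that cell. Per cell, the median of Prss29 was higher in holding cells, with 7.5 counts, against 4.5 in other cells. Prss28 had 11 counts in 4 holding cells and counts in 31 other cells, with medians of 0 and 1 counts per cell. The cell with 670 Prss29 counts had 69.7% of all Prss28 counts. The log2 ratio of Prss28 was −3.49 [−4.50, −2.64], and −1.76 without that cell. All 4 measured members of the serine protease list were at least 1.5-fold lower, at a limit that 32.1% of genes passed lower and 23.5% higher. Beside these 2 they were Plat and F3, whose intervals included no difference. F3, tissue factor, is the cofactor of a serine protease and not a protease itself. The cell with 46 Spink12 counts had 9 counts of Prss29 and 2 of Prss28.

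Ubxn11, a UBX-domain protein gene, led the higher genes with 29 counts in 6 holding cells, against 14 in 8 other cells, a log2 ratio of 3.20 [2.23, 4.23]. Sh3bgrl3 lies within 2 kb of Ubxn11, so the reads may not be its own. Nap1l1, a nucleosome assembly chaperone, had 3.04 from 13 counts in holding cells and 7 in other cells, and Tmem9, a lysosomal membrane protein, 2.07. Ilk, a kinase at integrin contacts, and Taf10, a TFIID subunit, overlap in the genome and had identical counts, and so gave 1 value of 1.63. Csrp1, a LIM-domain protein, stood at 1.40, Sap18, a Sin3-associated protein, at 1.38 and Ndufs7, a complex I subunit, at 1.36. The unannotated row WI1-2477B13.3 stood at 1.39 and Uqcrc1, a complex III subunit, at 1.29. These 2 rows had nearly the same counts, 16 each in holding cells and 27 and 29 in other cells, and may be 1 measurement. Anxa2, a membrane-binding annexin, stood at 0.98 with counts in 10 of 10 holding cells and 35 of 46 other cells. Cd74, the MHC class II invariant chain, stood at 0.50 [0.14, 0.85] with 1 other cell holding 94 of its counts, and below 0 under 3 of the alternatives tried.

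Xist, the RNA that coats the inactive X chromosome, led the lower genes with 1 count in 10 holding cells, against 77 counts in 28 of 46 other cells, a log2 ratio of −4.12 [−9.44, −1.60]. Trib1, a pseudokinase, had −2.58, Hnrnph1, a splicing regulator, −2.42 and Muc1 −3.66 from 1 count in holding cells and 56 in other cells. Cab39, a scaffold of the kinase LKB1, had 0 counts in holding cells, against 45 in other cells, at least 3.39-fold lower by the floor. Beside these values, Krt18 was counted in 6 of 10 holding cells and 38 of 46 other cells, and Epcam in 2 holding cells and 14 other cells. Of 7 measured luminal markers 1 was at least 1.5-fold higher and 3 lower, against 23.5% and 32.1% of all genes measured. The higher one was Krt7, at 1.69 [1.05, 2.33] with counts in 8 holding cells and 25 other cells. Without the cell with its largest count Krt7 stood at 1.23 [0.47, 1.96]. Smooth muscle genes had 42 counts in holding cells, 34 of them in a single cell with 1 Spink12 count, against 83 in other cells. Stroma genes had 31 counts in holding cells, against 294 in other cells. Without the 8 muscle-marked cells all 18 genes named for pnd28 kept their direction, with log2 ratios of 3.23 for Ubxn11, −3.82 for Xist and −3.42 for Prss28. The part of the stroma genes was not tested.

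**Figure D4:**
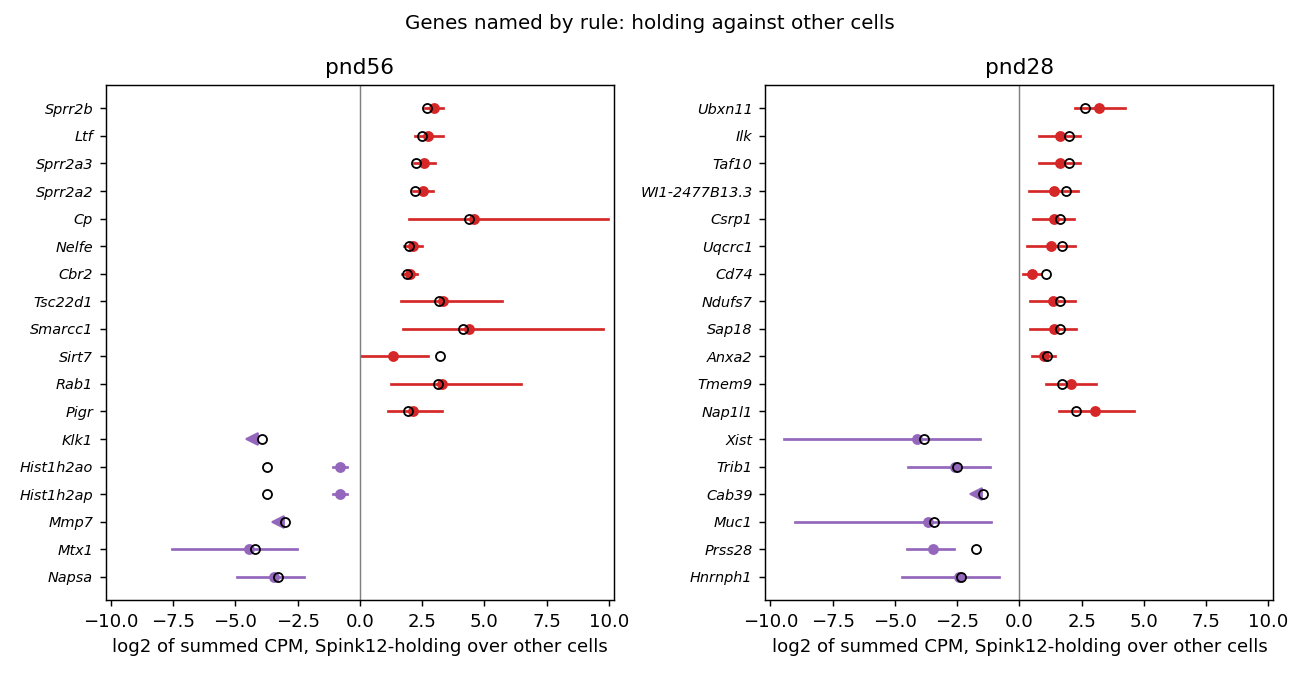
Log2 ratio of summed CPM, holding over other cells (horizontal axis), for the genes named by rule at pnd56 (left) and pnd28 (right). Filled points with lines are the ratio and its 95% interval, red for higher and purple for lower genes, left-pointing triangles are bounds for genes with 0 counts in holding cells, and open circles are the value without the cell with the largest count of that gene. Sprr2b at 2.98 and Ltf at 2.74 have narrow intervals at pnd56, and Xist at −4.12 a wide one at pnd28.

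The genes of the pnd56 and pnd28 holding cells were then set side by side. Of the genes measured at both ages, and with the largest cell of each gene left out, the intervals of 11 (1.75%) lay on the same side of no difference at both ages and those of 20 (3.18%) on opposite sides. Anxa2 was on the same side, with log2 ratios of 0.68 at pnd56 and 0.98 at pnd28, and Spsb2, an adaptor of ubiquitin ligases, with 1.35 at pnd56 and 1.54 at pnd28. Sprr2a3 was not among them: it stood at 2.58 at pnd56 and 1.72 at pnd28, but at 1.02 [−0.04, 1.99] at pnd28 without its largest cell. Ltf, at 2.74 at pnd56 and −1.37 at pnd28, and Muc1, at 1.24 at pnd56 and −3.66 at pnd28, were on opposite sides. Mmp7, with 0 counts in the pnd56 holding cells, was counted at pnd28 in 2 of 10 holding cells and 5 of 46 other cells. Klk1 was counted at pnd28 in 0 holding cells and 3 other cells. Napsa stood at −3.43 at pnd56 and at 1.22 [−0.05, 2.40] at pnd28. The difference between the ages was not tested.

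Across single cells the genes most like Spink12 at pnd56 included several named above. Over 45 cells and 1065 genes, on log2(count per 1500 counts + 1), Pearson's r was 0.64 for Sprr2a3, 0.62 for Sprr2a2, 0.55 for Cp, 0.55 for Sprr2b, 0.50 for Nelfe, 0.49 for Ltf, 0.48 for Tsc22d1 and 0.47 for Mprip, a myosin phosphatase-binding protein. The median of all genes was −0.01 and the lowest −0.50, and without the cell with 73 counts the 8 values ran from 0.45 for Mprip to 0.64 for Nelfe. At pnd28, over 56 cells, Ubxn11 had 0.66, followed by Coa3 at 0.51, Acadvl at 0.50, Anxa8 at 0.48, Prpf39 and Mif at 0.46, Spsb2 at 0.45 and Ndufs7 at 0.44. Without the cell with 46 counts these 8 values ran from 0.31 for Prpf39 to 0.56 for Ubxn11. All of these cells share 1 run per age, and at pnd28 a pair of cells holds most of the counts.

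Over the 5 ages the genes nearest to Spink12 in profile also had most of their level at pnd56 and the next at pnd28. The measure was the summed absolute difference of their shares per age divided by 2, from 0 for the same profile to 1 for none in common, over 4856 genes. Spink12 had 25.5% of its summed level at pnd28 and 74.3% at pnd56. Nearest was Cxcl2, a neutrophil-attracting chemokine, at 0.0580, then Ckmt1, a mitochondrial creatine kinase, at 0.0659, Car2 and the arginine synthesis enzyme Ass1 at 0.107, Pigr at 0.126, Col3a1 at 0.127, and Nelfe and Col1a2 at 0.136. Of the pnd56 counts of Col1a2 and Col3a1, 72 of 78 and 54 of 63 lay in the cell that also had 73 Spink12 counts.

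The other Spink rows had few counts at any age. Of 26 listed Kazal-domain genes 13 had a row. Over pnd0, pnd7, pnd14, pnd28 and pnd56, Spink8 had 5, 3, 19, 0 and 1 counts, Spink2 had 2, 6, 5, 2 and 0, Spink5, the skin inhibitor LEKTI, had 0, 0, 0, 4 and 1, and Spink4 had 1, 2, 0, 0 and 0. Fstl1, a secreted follistatin-like glycoprotein, had 296.9 CPM at pnd0, 266.05 at pnd7, 104.5 at pnd14, 51.9 at pnd28 and 36.6 at pnd56. Of 5 Kazal-domain genes measured for pnd56 over pnd0, 1 was at least 2-fold higher, the matrix protein gene Sparc, and 4 were at least 2-fold lower, against 10.3% and 27.4% of all genes measured. Among the lower ones, Fstl3 and Tmeff1 had 2 and 1 counts at pnd56, and their intervals included no difference.

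Inhibitors of other families differed among themselves. Spint1, the membrane inhibitor of hepsin and matriptase, had 578.4, 584, 482.99, 436 and 439.6 CPM over the 5 ages, and Wfdc2, a whey acidic protein-type inhibitor, 11333, 9464, 6296, 8759 and 4994 CPM. Between pnd56 and pnd28, 1 of 4 measured inhibitors was at least 2-fold higher and 0 at least 2-fold lower, against 14.8% and 16.5% of all genes measured. The higher one was Wfdc18, with 29 counts at pnd56 against 9 at pnd28, and Wfdc2 had a log2 ratio of −0.81 [−0.98, −0.64]. Over the 5 ages Wfdc18, another whey acidic protein-type gene, had 0, 42.3, 392.6, 93.5 and 354.1 CPM, and Timp3, an inhibitor of metalloproteases, 314.1, 191.01, 305.04, 124.7 and 85.5 CPM. Between pnd56 and pnd0, 2 of 6 measured inhibitors were at least 2-fold higher, against 10.3% of all genes, and 2 at least 2-fold lower, against 27.4%. Wfdc18 was at least 68.8-fold higher at pnd56 than at pnd0 by the floor of 3 counts, and Timp3 had a log2 ratio of −1.88 [−3.21, −0.81].

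The serine proteases peaked at different ages. Prss28 had 0, 5 and 0 counts at pnd0, pnd7 and pnd14, 5787 CPM at pnd28 and 0 counts at pnd56. Prss29 had 1, 15, 1, 1144 and 0 counts, so both were present with Spink12 at pnd28 and had no count in the 45 pnd56 cells, where Spink12 was highest. At pnd56 their log2 ratios over pnd28 were at most −7.30 and −8.34 by the floor of 3 counts. Klk1 had 1, 0, 5, 8 and 64 counts and was higher at pnd56 than at pnd28, with a log2 ratio of 3.23 [2.17, 4.51], though in cells without Spink12. Plat, tissue plasminogen activator, had 122.1 CPM at pnd56, against 654.6 CPM at pnd28. Between these ages 1 of 5 measured members of the list was at least 2-fold higher and 4, the cofactor F3 among them, were at least 2-fold lower, against 14.8% and 16.5% of all genes measured. Whether the inhibitor acts on any of these enzymes was not measured.

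**Figure D5:**
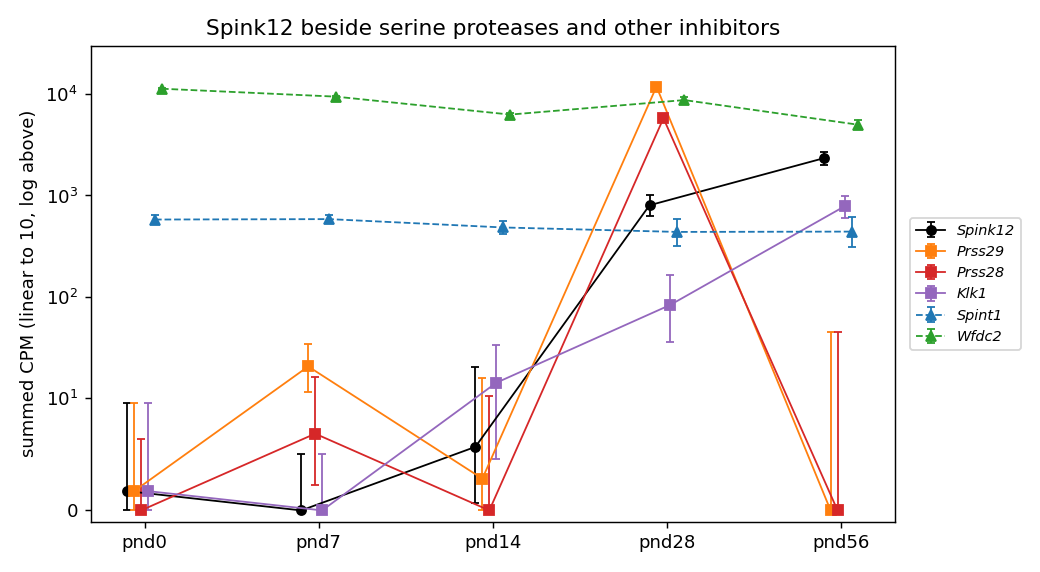
Summed level in CPM (vertical axis, linear to 10 and logarithmic above) of Spink12, 3 serine proteases (squares) and 2 other inhibitors (triangles) over the 5 ages, with 95% Poisson intervals. Prss28 and Prss29 peak at pnd28 and have no count at pnd56, Klk1 has its highest level, 781.5 CPM, at pnd56, and Spint1 stays between 436 and 584 CPM.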

How the data were processed

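The deposited table holds counts as whole numbers for 12479 gene rows in 714 cells, each cell a sample of its own, from CEL-seq libraries per the labels' protocols. Per the submitters' processing notes, TopHat and Cuffnorm were used with mouse build mm9, with no role or version given. Collapsing of molecular identifiers is not stated in the labels, so intervals and floors cover counting error only. Of 960 sorted cells 714 were deposited, by a rule the labels do not give. The ages have 173, 267, 173, 56 and 45 cells over pnd0, pnd7, pnd14, pnd28 and pnd56, and cell totals ran from 586 to 9332 counts. Cells were sorted singly, no doublet caller was run and no cell was left out. Totals per age, in the same order, were 582615, 732957, 354047, 96248 and 81894 counts.

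Sums over cells were divided by the summed total to give CPM, with exact 95% Poisson intervals. Ratios carry exact conditional binomial intervals and shares Clopper-Pearson ones. A sum of 0 was replaced by a floor of 3 counts for bounds. Genes needed 20 counts over both sets of cells, and list members at least 1.5-fold between cells or 2-fold between ages counted as higher or lower. Thinning drew 1500 (or 1000) counts per cell. For Spink12 itself the mean over all such draws was computed exactly, and for other genes 1 seeded draw was used. Named genes needed a count in at least 5 cells of the higher set. They were ranked, with the cell of their largest count left out, by whichever interval bound lay closest to a ratio of 1, and the first 12 higher and 6 lower were taken, with the 8 most like Spink12 in each pattern and members of the lists. The members and lists were chosen with earlier results of these data known.

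No test was made, since each age is 1 sample. The ratio and naming steps were tested on simulated data. Simulated cells of a set shared a single profile, without the spread between real cells, so the simulation covers counting error only. GENCODE M21, on another build than the authors', gave names and neighbours only. Tools were Python 3.11.15, numpy 2.4.6, pandas 2.3.3, scipy 1.17.1 and matplotlib 3.10.9.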

Additional observations from a re-analysis of the deposited data

Results flagged for a closer look

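Several genes lay on opposite sides in the holding cells of the late ages, both with all cells and without the cell of their largest count. The log2 ratio of Ltf, holding over other cells, was 2.74 at pnd56 and −1.37 at pnd28. That of Muc1 was 1.24 at pnd56 and −3.66 at pnd28, the second from 1 count in 10 holding cells. That of Nelfe, whose reads may belong to its neighbours Skiv2l and Cfb, was 2.13 at pnd56 and −1.35 at pnd28. The difference between the ages was not tested, since each age is 1 sample. The holding cells of pnd28 include 5 with a single count.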

How the results depend on the processing

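The direction of the Spink12 age ratios held under every alternative run, while their size did not. Its level was 0 at pnd0 without the largest cell or without run 2, and 0 at pnd14 without the largest cell, without cells above 2 times the median total or without run 7. At pnd28 it was 327.5 CPM without the largest cell and 128.3 CPM without the 2 largest. At pnd56 it was 1747 CPM as a mean over cells, 1525 without the largest cell and 1586 without the deep cells. The log2 ratio of pnd28 over pnd14 was 4.51 without the 2 largest pnd28 cells. That of pnd56 over pnd28 was 0.90 as a mean over cells, 2.22 without the largest cells, 0.88 without deep cells and 4.18 without the 2 largest pnd28 cells. That of pnd56 over pnd0 had a bound of 7.84 without run 2. 

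At pnd28 the numbers of genes at least 2-fold higher and lower in holding cells were 315 and 68 when holding meant at least 3 counts, 69 and 75 after thinning to 1500 counts, 58 and 76 with the holding cells of before thinning, 66 and 81 at 1000, and 22 and 29 with a minimum of 50 counts. At pnd56 they were 34 and 41 at 1500, 55 and 52 with the holding cells of before thinning, 99 and 85 in unthinned cells of at least 1500 counts, 49 and 71 at 1000, and 27 and 24 with the higher minimum. Thinning and a higher minimum measure fewer genes by construction. The number of genes measured under each alternative is not given, so these counts could not be turned into shares. They cannot be compared between settings or with the main shares given above. Only the higher and lower counts of the same setting and age rest on the same genes. Of the 8 genes most like Spink12 over cells, 2 were kept at pnd28 and 2 at pnd56 after thinning, and of the 8 nearest over ages 4 were kept with the mean over cells.

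Changes of sign among named genes, bounds included, occurred at pnd28 alone. Cd74 stood at −1.57 with at least 3 counts, −0.19 at 1000 counts and −0.31 as a mean over cells. Tmem9 stood at −0.0091 with at least 3 counts. The upper bound for Cab39, which had 0 counts in holding cells, was 0.33 with at least 3 counts and 0.13 at 1500 counts, and so gave no direction. WI1-2477B13.3 and Uqcrc1, which had nearly the same counts, stood at −0.78 and −0.89 in cells with Krt18. The cause was not tested. Of the values for named genes 65 others moved beyond their interval and 8 changed sign. The Krt18, 1000-count, first-24-title and 2-largest-cell alternatives, and those with the holding cells of before thinning or unthinned cells of at least 1500 counts, were chosen after seeing the data. No paired analysis was possible because each age is 1 sample and the labels carry no shared replicate. The pnd28 comparison rests on 10 holding cells with 77 Spink12 counts, which limits its precision.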
